A study of Mus musculus with 18 samples.

Results

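The genes described here encode secreted antagonists of bone morphogenetic proteins (BMPs) and of activins, together with the activin subunits: Grem1, Nog, Chrd, Chrdl1, Chrdl2, Fst, Fstl3, Inhba and Inhbb. They are 9 of the 18193 genes tested. The members were listed by name, and each was read from its brightest single-symbol probe set, judged by the mean of all 18 arrays. The 9 members have 15 such probe sets. Chrdl1 has 4, Fst, Inhba and Inhbb have 2 each, and the other 5 members have 1.

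BMPs and activins are dimeric ligands of the TGF-beta family that bind type I and type II serine/threonine kinase receptors. BMP receptors phosphorylate Smad1, Smad5 and Smad8, and activin receptors phosphorylate Smad2 and Smad3. Gremlin, noggin, chordin and the chordin-like proteins bind BMPs outside the cell and keep them from their receptors, while follistatin and follistatin-like 3 do so mainly for activins. In skin, BMPs and their antagonists are known for setting the timing of the hair cycle, and activin for its part in wound repair.

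RNA of sorted mouse dermal cells was measured on Affymetrix Mouse Genome 430 2.0 arrays, with 3 arrays in each of 6 groups and no treatment in any group. All mice carried R26mTmG, a reporter whose cells are red (RFP) until Cre recombination turns them and their descendants green (GFP). ENF cells (red, not green, so outside the Engrailed-1 lineage) and EPF cells (green, not red, so inside it) came from the dorsal dermis of En1Cre; R26mTmG mice and are labelled postnatal day 56. Dorsal and Ventral are green cells from the dorsal and the ventral dermis of the same line, labelled postnatal day 30. Cranial and Oral are green cells of Wnt1Cre; R26mTmG mice, from cranial dermis and oral mucosa, also labelled postnatal day 30. Wnt1Cre marks descendants of the neural crest. For ENF and EPF the protocol text gives 30 days, so their age is unsettled. Every sample was sorted as negative for EpCAM, CD45, CD31, Tie2, a marker given as Tie119 and the dead-cell dye DAPI.

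Several limits follow from this design. Between head (Cranial, Oral) and trunk (Dorsal, Ventral) the Cre driver and the body site cannot be told apart. EPF and Dorsal are both green back cells of 1 line, and the label of age and the set of arrays cannot be told apart from the group. The labels do not say whether the 3 arrays of a group came from separate mice, so p-values measure the spread between arrays. In the site comparisons this spread is pooled over the 12 arrays of all 4 site groups, not only over the groups compared. In sorted bulk RNA, fewer cells of a type and less RNA per cell cannot be told apart.

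Values are log2 expression as deposited. The median of all values is 5.26, and each array's own median lies between 5.19 and 5.32, which serves below as a mark of a dim signal. Pairs of the 12 site arrays, from the same or from different groups, correlated at 0.946 to 0.998 over all genes. Dorsal arrays had the lowest mean correlation with their own group, at 0.956 to 0.971. Of the defining fibroblast markers, Pdgfra lay between 10.71 and 13.39 on all 18 arrays and Col1a1 between 12.91 and 14.05. Dcn, also defining, averaged 10.80 in Oral, 12.71 to 13.20 at the other sites, 14.51 in ENF and 14.53 in EPF. Lum, another gene of that list, averaged 13.70 in ENF, 13.88 in EPF, 11.24 in Cranial and 9.31 in Oral. Its trunk values were uneven, at 9.84 (SD 1.89) in Dorsal and 8.27 (SD 2.27) in Ventral. The defining endothelial markers Pecam1 and Cdh5 and the leukocyte marker Ptprc had group means between 3.77 and 4.23, below every array's median. Tek, which encodes the sorted-out antigen Tie2, averaged 10.46 in ENF and 10.20 in EPF against 3.75 to 4.27 at the 4 sites. Kdr, another endothelial gene, averaged 8.87 in ENF, 8.38 in EPF and 6.55 to 7.28 at the sites. The leukocyte marker Cd68 had group means of 3.85 to 4.64, but Csf1r, also a defining leukocyte marker, averaged 9.88 in EPF, 7.19 in ENF and 6.48 to 7.67 at the sites. The 7 leukocyte genes summed to 9.77 to 10.95 in EPF, 8.51 to 9.31 in ENF and 8.42 to 9.32 at the sites.

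Oral cells had the lowest mean levels of both activin subunits, of Fst and of Grem1 among the 4 site groups, and trunk cells the highest means of Grem1 and Inhba. For Inhba, Oral and Cranial overlapped, and their difference of -0.18 did not pass (adjusted p = 0.996 in limma). Of the 9 members, 4 were lower in Oral than in Dorsal (adjusted p under 0.05 in limma) and 0 higher, where 6.30% of all genes tested were lower. Against Ventral, 5 of 9 were lower in Oral, where 4.31% of all genes were. In Cranial against Ventral 2 of 9 were lower, beside 6.20% of all genes. These comparisons share groups, so they are not separate evidence of 1 direction.

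In Cranial against Dorsal limma called 0 of 9 members, beside 18.7% of all genes in either direction. Unadjusted p was under 0.05 for 3 of the 9 members, beside 5975 of the 18193 genes. In Oral against Cranial 1 of 9 was lower and 0 were higher, beside 0.731% and 0.407% of all genes. In Ventral against Dorsal limma called 0 of 9, beside 0.0275% of all genes. There 2 members had an unadjusted p under 0.05, beside 1555 of the 18193 genes. EPF against ENF had 1 member higher and 1 lower, beside 0.275% and 0.0330% of all genes, or 0.308% in either direction. EPF against Dorsal had 2 members higher and 3 lower, beside 10.9% and 5.94%.

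The arrays of both groups did not overlap for 6 of 9 members in EPF against ENF (17.0% of all genes) and for 7 in EPF against Dorsal (36.6%). They did not overlap for 4 in Oral against Cranial (25.9%) and 1 in Ventral against Dorsal (10.1%). Between head and trunk this held for 3 in Cranial against Dorsal (35.5%), 5 in Oral against Dorsal (30.1%), 6 in Oral against Ventral (44.4%) and 5 in Cranial against Ventral (54.9%). In Ventral against Dorsal, Cranial against Dorsal and Cranial against Ventral the members' share was close to that of all genes.

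The median difference of the 9 members was -0.27 in Oral against Dorsal, -0.96 in Oral against Ventral, -0.34 in Cranial against Ventral and -0.26 in Cranial against Dorsal. The median of all genes in those comparisons lay between -0.06 and -0.02. When the columns were quantile normalized again, the share of higher genes among all calls changed. It went from 62.6% to 50.5% in Oral against Dorsal, from 70.6% to 51.9% in Oral against Ventral and from 65.3% to 48.3% in Cranial against Ventral. It went from 60.0% to 48.0% in Cranial against Dorsal and from 64.6% to 47.5% in EPF against Dorsal.

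**Figure D1:**
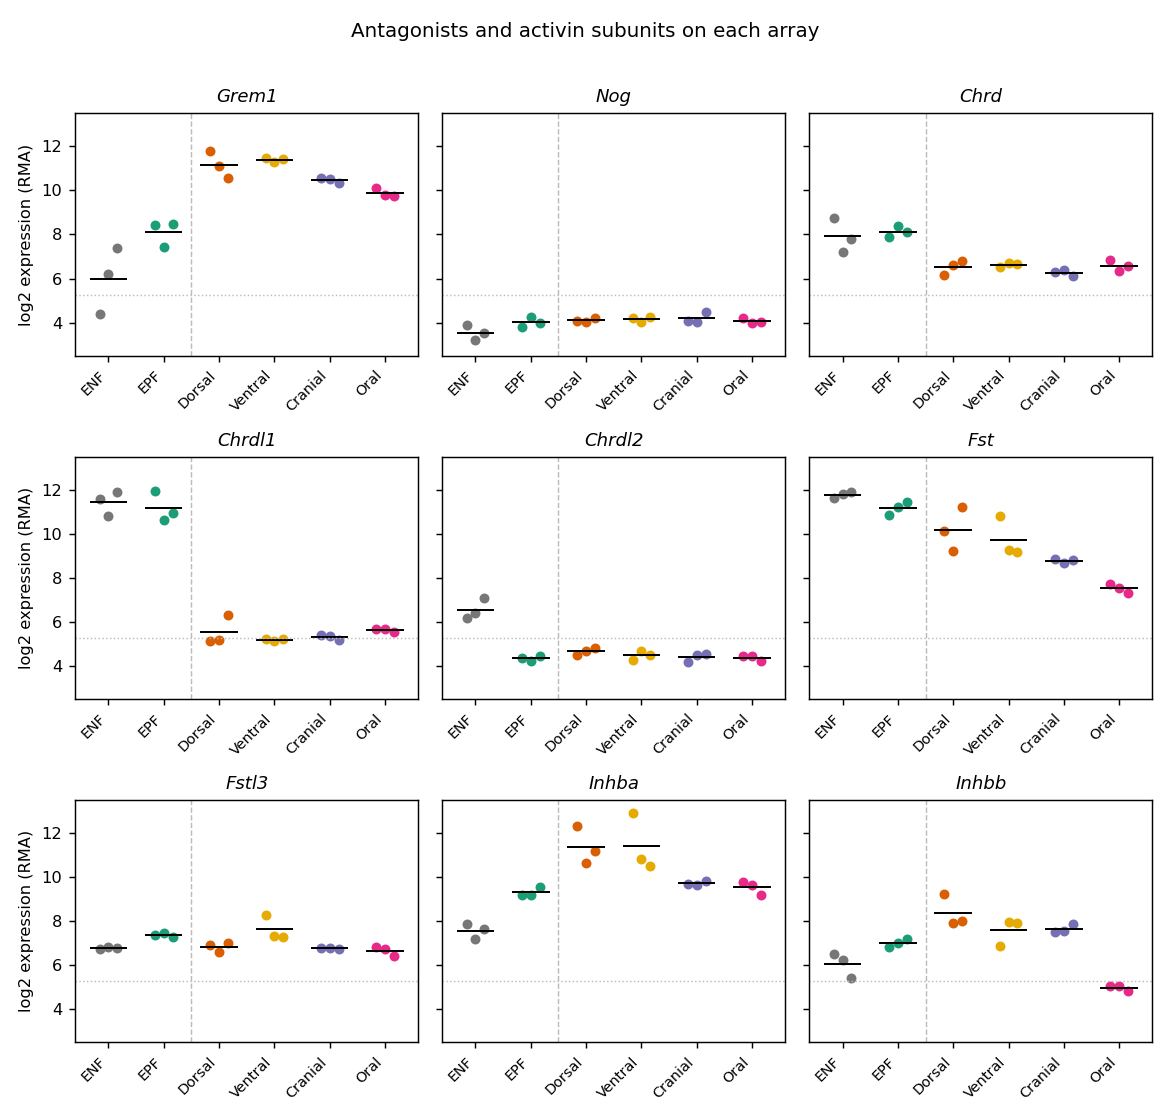
Log2 expression (vertical axis, RMA values) of the 9 members on each array, 1 point per array and 3 arrays per group, with a bar at the group mean. The dashed vertical line separates the back-skin pair ENF and EPF from the 4 site groups, and the dotted line is the median of all values, 5.26; Nog lies below it on all 18 arrays, Inhbb on the 3 Oral arrays, and Chrdl2 on every array outside ENF.

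The promoter of Inhba differs in base composition from those of Inhbb and Grem1. RefSeq (GRCm38.p6) start sites were available for 5 of the 9 members, and Fst is not among them. Inhba, Inhbb and Grem1 are printed, the 3 of those 5 with the largest called differences between sites. Each sequence is the 250 bases before the start, 5′ to 3′ on the gene's own strand, in lower case with motif matches on either strand in capitals. The motifs searched were the GC box GGGCGG, the TATA box TATAAA, the CCAAT box, the Smad box CAGAC, the palindromic Smad element GTCTAGAC, the AP-1 site TGANTCA and the TEAD site GGAATG. Inhba lies at chr13:16011601-16011850 on the plus strand, Inhbb at chr1:119422249-119422498 and Grem1 at chr2:113758649-113758898, both on the minus strand.
Inhba: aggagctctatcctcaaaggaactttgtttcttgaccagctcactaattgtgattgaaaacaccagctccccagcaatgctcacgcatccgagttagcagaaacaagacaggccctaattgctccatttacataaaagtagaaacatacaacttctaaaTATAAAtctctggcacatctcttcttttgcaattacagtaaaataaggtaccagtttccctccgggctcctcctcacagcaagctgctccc
Inhbb: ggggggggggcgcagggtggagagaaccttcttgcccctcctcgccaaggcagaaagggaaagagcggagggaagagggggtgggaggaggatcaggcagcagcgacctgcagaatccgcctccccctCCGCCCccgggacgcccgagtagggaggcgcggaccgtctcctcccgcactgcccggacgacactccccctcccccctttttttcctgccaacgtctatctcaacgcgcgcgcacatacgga
Grem1: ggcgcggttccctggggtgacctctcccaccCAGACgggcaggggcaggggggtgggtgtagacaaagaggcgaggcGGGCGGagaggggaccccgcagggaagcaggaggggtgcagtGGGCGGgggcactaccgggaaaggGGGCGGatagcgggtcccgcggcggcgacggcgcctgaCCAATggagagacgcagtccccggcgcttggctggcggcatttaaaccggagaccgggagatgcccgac

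The Inhba window is 43.2% G and C, with 1 TATAAA and no other match. The Inhbb window is 68.0% G and C with 1 GC box, and the Grem1 window 72.0% with 3 GC boxes, 1 CCAAT and 1 CAGAC. The median over 32851 mouse promoters is 52.4%. TATAAA occurs in 12.4% of those promoters cut to the same length, the GC box in 32.7%, CCAAT in 33.8% and CAGAC in 42.2%. The unprinted windows of Chrd and Fstl3 are 78.0% and 71.2% G and C and hold 4 GC boxes each, some overlapping by a base or more, and Fstl3 also 1 TATAAA and 2 CAGAC. The AP-1, TEAD and GTCTAGAC letters, found in 6.75%, 12.6% and 0.167% of all promoters, are in none of the 5 windows. A match is a description of the letters and not of binding.

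Inhba encodes the beta A subunit, whose homodimer is activin A. It read 12.31, 10.64 and 11.20 on the Dorsal arrays and 12.88, 10.80 and 10.49 on the Ventral arrays. On the Cranial arrays it read 9.68, 9.64 and 9.82 and on the Oral arrays 9.75, 9.66 and 9.20. All 6 trunk arrays were above all 6 head arrays, and the first Dorsal and the first Ventral array were the highest of their groups.

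Inhba was lower in Oral (9.54 ± 0.29, SD, n = 3) than in Dorsal (11.38 ± 0.85), with a log2 difference of -1.84 ± 0.56 (SE), or 3.59-fold, and an adjusted p of 0.0457 in limma. It was likewise lower in Oral than in Ventral (11.39 ± 1.30), by -1.85 ± 0.56 or 3.61-fold (adjusted p = 0.0493). Cranial (9.71 ± 0.10) differed from Dorsal by -1.67 ± 0.56 (adjusted p = 0.062) and from Ventral by -1.68 (adjusted p = 0.0624), which did not pass. Both Oral calls were lost without any 1 Oral array, at adjusted p in limma of 0.0907 to 0.141 against Dorsal and 0.1 to 0.144 against Ventral. In those fits, with 2 Oral arrays, fewer genes were called as well. They went from 3065 to between 1770 and 2060 against Dorsal and from 2665 to between 1420 and 1833 against Ventral. Without the first Dorsal array the difference was -1.38 (adjusted p = 0.0768), without the third -1.94 (0.0618), and without the first or second Ventral array -1.11 (0.0996) or -2.15 (0.0624). The Oral against Dorsal call was also lost on those 6 arrays alone (0.0593) and with the mean of both Inhba probe sets (-0.84, adjusted p = 0.0571).

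The Cranial differences in Inhba moved with single trunk arrays in both directions. Against Dorsal the difference was -1.20 (adjusted p = 0.109 in limma) without the first Dorsal array and -2.04 (0.0456) without the second. Against Ventral it was -0.93 (0.148) without the first Ventral array and -2.13 (0.0421) without the third. In all, the Cranial difference passed in 8 of 15 alternatives against Dorsal and in 9 of 15 against Ventral.

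In the back-skin pair Inhba read 9.17, 9.20 and 9.55 on the EPF arrays and 7.87, 7.19 and 7.63 on the ENF arrays, with no overlap. It was higher in EPF (9.31 ± 0.21) than in ENF (7.56 ± 0.35) by 1.74 ± 0.22, or 3.35-fold (adjusted p = 0.0297 in limma). The call was lost without any 1 of the EPF arrays (adjusted p 0.0823, 0.154 and 0.167). It was also lost in 1 fit of all 18 arrays (0.0772) and with the mean of both Inhba probe sets (0.85, adjusted p = 0.0826). The second Inhba probe set, 1458291_at, was dim, with group means of 4.51 to 5.06, and was not called in any comparison. EPF was lower than Dorsal by -2.07 ± 0.41, or 4.21-fold (adjusted p = 0.0177), and this call was lost without any 1 EPF array (0.061 to 0.0742).

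Inhbb encodes the beta B subunit of activin B, which also pairs with the beta A subunit. It read 5.06, 5.06 and 4.81 on the Oral arrays, all below their own array's median. It read 7.49, 7.56 and 7.88 on the Cranial arrays, 9.23, 7.90 and 8.02 on the Dorsal arrays and 6.85, 7.93 and 7.93 on the Ventral arrays. Oral stood apart from the other 3 site groups without overlap, while Cranial and Ventral overlapped.

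Inhbb in Oral (4.97 ± 0.15) was 6.36-fold lower than in Cranial (7.64 ± 0.21), with a log2 difference of -2.67 ± 0.36 (adjusted p = 0.00314 in limma). It was 10.6-fold lower than in Dorsal (8.38 ± 0.73), by -3.41 ± 0.36 (adjusted p = 0.000157), and 6.05-fold lower than in Ventral (7.57 ± 0.62), by -2.60 ± 0.36 (adjusted p = 0.000852). These calls held under every alternative run, which were 14 for Cranial and 15 each for Dorsal and Ventral. Because the Oral signal is dim, its distance to background is unknown and the folds describe the array signal. The second Inhbb probe set, 1426859_at, had group means of 5.14 to 5.71 and was not called in any comparison.

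Inhbb in EPF (7.00 ± 0.19) and ENF (6.04 ± 0.55) did not overlap, with 6.81, 7.00 and 7.20 against 6.48, 6.22 and 5.42. The difference of 0.96 ± 0.28 did not pass (adjusted p = 0.269). EPF was lower than Dorsal by -1.38 ± 0.36, or 2.61-fold (adjusted p = 0.0456). That call was lost without any 1 EPF array (adjusted p 0.115 to 0.148), without the second Dorsal array (0.0533) and with the mean of both probe sets (-0.56, adjusted p = 0.0831).

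Fst encodes follistatin, which binds activin nearly irreversibly. It read 7.72, 7.55 and 7.29 on the Oral arrays and 8.84, 8.69 and 8.81 on the Cranial arrays. It read 10.12, 9.20 and 11.22 on the Dorsal arrays and 10.78, 9.26 and 9.17 on the Ventral arrays. Every Oral array lay below every Cranial array, and every Cranial array below every trunk array.

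Fst was lower in Oral (7.52 ± 0.22) than in Dorsal (10.18 ± 1.01) by -2.66 ± 0.49, or 6.31-fold (adjusted p = 0.00425 in limma). It was lower in Oral than in Ventral (9.73 ± 0.91) by -2.21 ± 0.49, or 4.63-fold (adjusted p = 0.0122). Cranial (8.78 ± 0.08) differed from Dorsal by -1.40 ± 0.49 (adjusted p = 0.0708) and Oral from Cranial by -1.26 (adjusted p = 0.46), which did not pass. Cranial against Dorsal was -0.88 (adjusted p = 0.181) without the third Dorsal array, -1.89 (0.0203) without the second and -0.55 (0.0682) with array weights. Oral against Cranial passed on those 6 arrays alone (adjusted p = 3.12e-06) and with array weights (0.00441). With the mean of both Fst probe sets, Oral against Ventral lost its call (-1.56, adjusted p = 0.0536), and Cranial against Dorsal was -0.56 (0.441).

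The second Fst probe set, 1434458_at, gave another order of sites, with means of 9.54 in Cranial, 9.27 in Dorsal, 8.88 in Ventral and 7.96 in Oral. Oral was the lowest site on both probe sets. On the second, with p-values adjusted over 34945 probe sets, Oral differed from Dorsal by -1.31 (adjusted p = 0.0941) and from Ventral by -0.92 (adjusted p = 0.245), and neither passed. Cranial against Dorsal had opposite signs on the 2 probe sets, at -1.40 and 0.27, as had Cranial against Ventral, at -0.96 and 0.66. The place of Cranial among the sites therefore depends on the Fst probe set.

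Fst had its highest means in the back-skin pair, at 11.62, 11.80 and 11.89 on the ENF arrays and 10.84, 11.22 and 11.46 on the EPF arrays. ENF (11.77 ± 0.14) and EPF (11.17 ± 0.31) did not overlap, and their difference of -0.60 did not pass (adjusted p = 0.325). EPF overlapped Dorsal, and the difference of 0.99 did not pass (adjusted p = 0.239).

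**Figure D2:**
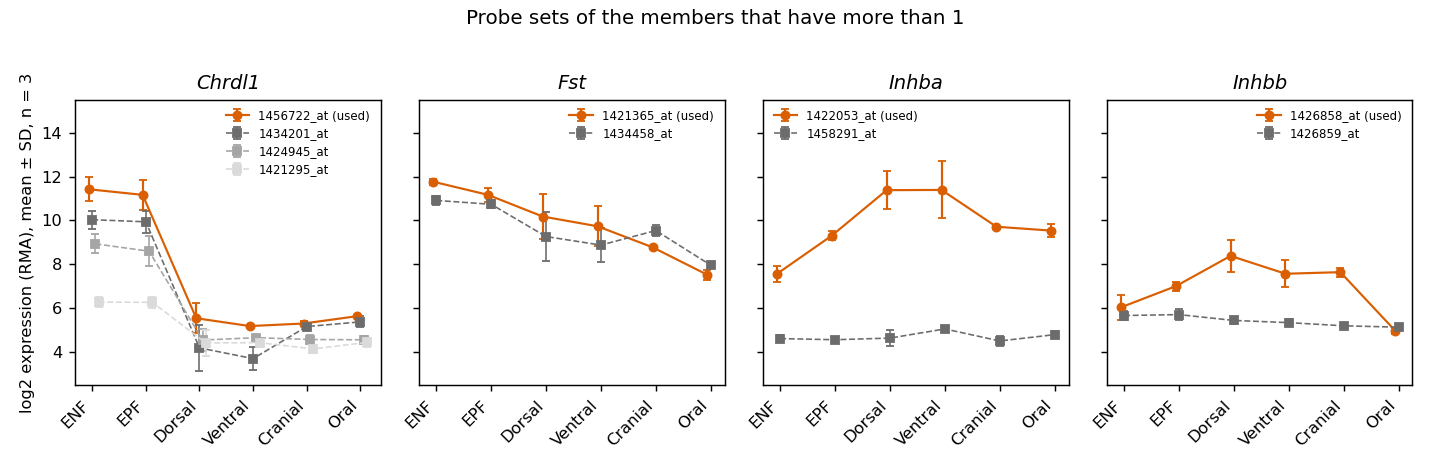
Mean log2 expression ± SD (vertical axis, n = 3 arrays) of each probe set of the members with more than 1, by group, with the probe set used drawn as a solid line and the others dashed; lines only join values of 1 probe set. The Chrdl1 probe sets share the step between the back-skin pair and the sites, the Fst probe sets part at Cranial, and the second Inhba and Inhbb probe sets stay between 4.51 and 5.71.

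Fstl3 encodes follistatin-like 3, a relative of follistatin that also binds activin and myostatin. It read 8.26, 7.31 and 7.29 on the Ventral arrays, 6.91, 6.57 and 7.01 on the Dorsal arrays, 6.79, 6.80 and 6.74 on the Cranial arrays and 6.81, 6.73 and 6.43 on the Oral arrays. All 3 Ventral arrays were above every other site array, and the first Ventral array was the highest of the 18.

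Fstl3 was lower in Oral (6.66 ± 0.20) than in Ventral (7.62 ± 0.55) by -0.96 ± 0.23, or 1.95-fold (adjusted p = 0.0192 in limma). It was lower in Cranial (6.78 ± 0.03) than in Ventral by -0.84 ± 0.23, or 1.79-fold (adjusted p = 0.0308). The Oral call was lost without the second or the third Oral array (adjusted p 0.0569 and 0.0762). The Cranial call was lost without any 1 Cranial array (0.0764 to 0.0977) and, without the first Ventral array, the difference was -0.53 (0.0529). Ventral against Dorsal, at 0.79 ± 0.23, did not pass (adjusted p = 0.489). In the back-skin pair the arrays did not overlap, with 7.38, 7.46 and 7.26 in EPF and 6.75, 6.84 and 6.77 in ENF, and the difference of 0.58 did not pass (adjusted p = 0.19).

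Grem1 encodes gremlin 1, a BMP antagonist that prefers BMP2, BMP4 and BMP7. It read 11.46, 11.28 and 11.42 on the Ventral arrays and 11.77, 11.12 and 10.55 on the Dorsal arrays. It read 10.55, 10.49 and 10.33 on the Cranial arrays and 10.12, 9.77 and 9.74 on the Oral arrays. Oral lay below the other 3 sites without overlap, and Dorsal overlapped both of its neighbours, Ventral and Cranial.

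Grem1 was lower in Oral (9.88 ± 0.21) than in Dorsal (11.14 ± 0.61) by -1.27 ± 0.25, or 2.41-fold (adjusted p = 0.00557 in limma). It was lower in Oral than in Ventral (11.38 ± 0.10) by -1.51 ± 0.25, or 2.84-fold (adjusted p = 0.00243), and lower in Cranial (10.46 ± 0.11) than in Ventral by -0.93 ± 0.25, or 1.90-fold (adjusted p = 0.0258). In 1 fit of all 18 arrays these gave adjusted p of 0.12, 0.0711 and 0.242, and Oral against Dorsal gave 0.0719 on those 6 arrays alone. The Cranial against Ventral call was lost without any 1 array of either group (0.0565 to 0.0965). Cranial against Dorsal, at -0.69 ± 0.25 (adjusted p = 0.0771), did not pass and moved with single Dorsal arrays. It was -0.37 (adjusted p = 0.117) without the first and -0.99 (0.0059) without the third. Oral against Cranial, at -0.58 (adjusted p = 0.542), passed on those 6 arrays alone (0.00535) and with array weights (0.00133).

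Grem1 was much dimmer in the back-skin pair, at 8.41, 7.45 and 8.48 in EPF and 4.39, 6.22 and 7.38 in ENF. The highest ENF array lay just below the lowest EPF array, and the difference of 2.12 ± 0.69 did not pass (adjusted p = 0.318). It was 1.32 (adjusted p = 0.323) without the first ENF array, and of 14 alternatives only the fit of all 18 arrays passed (adjusted p = 0.0424). EPF (8.11 ± 0.58) was 8.17-fold lower than Dorsal, by -3.03 ± 0.40 (adjusted p = 0.0039).

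**Figure D3:**
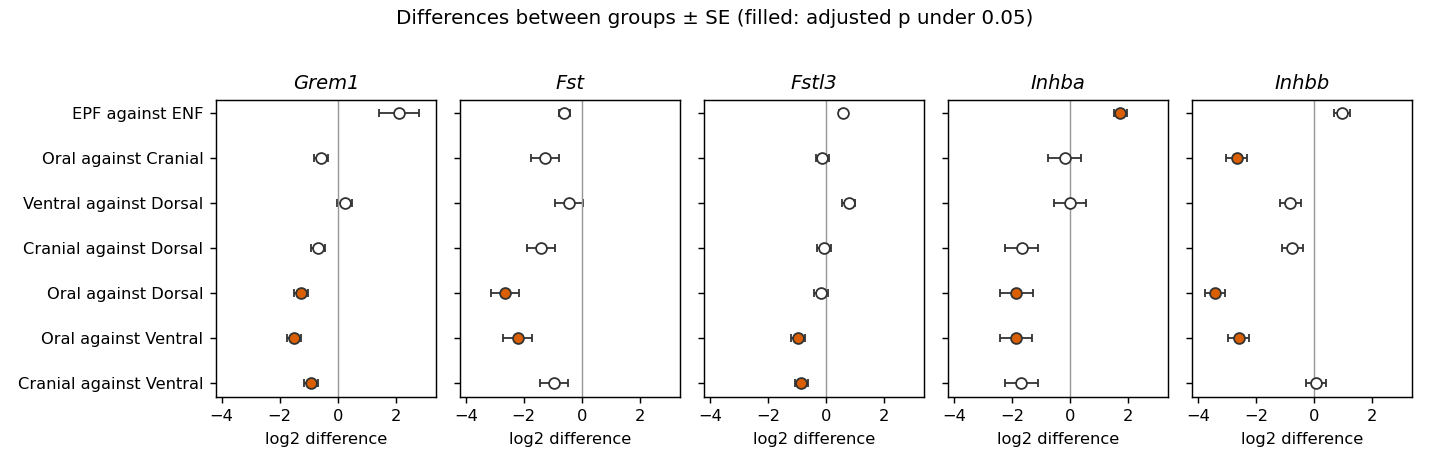
Log2 differences between groups (horizontal axis, first group minus the second) with the limma standard error as bars, for 5 members in 7 comparisons; filled points have an adjusted p under 0.05. Inhbb is filled in the 3 comparisons that contain Oral, from -3.41 to -2.60, and the Ventral against Dorsal row holds open points only.

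Chrd encodes chordin, which binds BMP2, BMP4 and BMP7. It read 7.88, 8.37 and 8.11 in EPF and 8.75, 7.22 and 7.81 in ENF, which overlapped. At the sites it ranged from 6.12 to 6.82 and no site comparison was called. Dorsal and Oral overlapped every other site group, and Cranial lay below Ventral without overlap. EPF (8.12 ± 0.24) was higher than Dorsal (6.52 ± 0.34) by 1.60 ± 0.23, or 3.02-fold (adjusted p = 0.00534 in limma).

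Chrdl1 encodes chordin-like 1, a BMP4 antagonist. It read 11.93, 10.61 and 10.96 in EPF and 11.57, 10.81 and 11.87 in ENF, which overlapped, while the 12 site arrays lay between 5.11 and 6.33. EPF (11.17 ± 0.68) was higher than Dorsal (5.55 ± 0.68) by 5.62 ± 0.45 (adjusted p = 0.000646 in limma). No fold is given, since the Dorsal signal is dim on 2 of 3 arrays and its distance to background is unknown. All 4 Chrdl1 probe sets were higher in EPF than in Dorsal, by 1.86 to 5.74. The third Dorsal array, at 6.33, was the highest site array, and the other two Dorsal arrays, at 5.13 and 5.17, were below their array's median. The probe set 1434201_at was also higher in Oral than in Ventral by 1.67 (adjusted p = 0.0234) and in Cranial than in Ventral by 1.46 (adjusted p = 0.0371), which the other 3 Chrdl1 probe sets were not.

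Chrdl2 encodes chordin-like 2. It read 6.19, 6.38 and 7.06 in ENF and 4.37, 4.21 and 4.46 in EPF, and the 12 site arrays lay between 4.18 and 4.79. It was the only member above its array's median in ENF alone. EPF (4.35 ± 0.13) was lower than ENF (6.54 ± 0.46) by -2.20 ± 0.24 (adjusted p = 0.018 in limma), and no fold is given because EPF is dim on every array. The call was lost without any 1 EPF array (adjusted p 0.0625, 0.118 and 0.127), and without the first ENF and the second EPF array, which are low in Xist, it gave -2.31 (0.114).

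Nog encodes noggin, a BMP antagonist of the hair follicle mesenchyme. It lay between 3.23 and 4.49 on all 18 arrays, below each array's median, with group means from 3.54 in ENF to 4.20 in Cranial. Neighbouring groups overlapped throughout, no comparison was called, and a signal this dim does not separate a low level from background.

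Marker lists of other cell types moved beside the back-skin results. The summed level of 10 keratinocyte and hair follicle genes was 12.05, 14.28 and 14.63 in ENF and 13.20, 10.07 and 10.90 in EPF, against 8.29 to 9.54 at the sites, and 2 of the 10 were lower in EPF than in ENF. The 9 skeletal muscle genes summed to 9.49 to 10.60 in ENF and 8.61 to 9.02 in EPF, with 2 of 9 lower in EPF. The 9 mural and smooth muscle genes summed to 11.62 to 11.84 in ENF and 13.36 to 13.70 in EPF, with 4 of 9 higher in EPF. Xist read 4.98 on the first ENF and 5.20 on the second EPF array and 11.60 to 12.13 on the other 4. The 9 dermal papilla and sheath genes summed to 10.53 to 10.74 in ENF and 11.30 to 12.14 in EPF. Without the 2 arrays low in Xist, Inhba differed by 1.95 (adjusted p = 0.131). The part of these cell types in the Inhba and Chrdl2 differences was not tested.

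At the sites the keratinocyte and skeletal muscle sums stayed at or below 9.54 in all 4 groups. The 7 measured tendon, cartilage and bone genes summed to 8.56 to 9.18 in Ventral, 9.61 to 11.63 in Dorsal, 10.54 to 10.83 in Cranial and 11.06 to 11.26 in Oral. Of those 7, 4 were higher in Oral than in Ventral and 3 higher and 1 lower in Oral than in Dorsal. Of the 8 fibroblast genes, 2 were lower in Oral than in Dorsal and 1 lower than in Ventral. The part of these in the member differences was not tested. For EPF against Dorsal, 4 of the 8 fibroblast genes and 2 of the 10 keratinocyte genes were higher in EPF, and 4 of the 9 mural genes higher and 2 lower, and their part was not tested either.

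Of 69 other genes of the pathway, 62 were measured. In the head against trunk comparisons more of them were higher in the head group than lower. The counts were 16 higher and 2 lower in Cranial against Dorsal, 13 and 1 in Oral against Dorsal, 13 and 2 in Oral against Ventral and 14 and 1 in Cranial against Ventral. The background is 11.2% higher and 7.45% lower in Cranial against Dorsal, 10.5% higher in Oral against Dorsal, 10.3% in Oral against Ventral and 11.7% in Cranial against Ventral. Limma called 0 of 62 in EPF against ENF and in Ventral against Dorsal, where 6 and 8 had an unadjusted p under 0.05. Of all 18193 genes, 1967 and 1555 had an unadjusted p under 0.05 in these 2 comparisons. After quantile normalization again the head against trunk counts were 14 and 1, 11 and 1, 14 and 2, and 13 and 1 in the same order. Array by array, leaving out the third Oral array brought Oral against Dorsal to 8 and 0, and leaving out the third Cranial array brought Cranial against Dorsal to 9 and 0.

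Among 13 measured ligands, Bmp5, a ligand of the BMP7 subgroup, was higher in Cranial (8.13 ± 0.40) than in Dorsal (4.69 ± 0.09) by 3.44 ± 0.21 (adjusted p = 6.24e-06 in limma). It was lower in Oral (5.54 ± 0.29) than in Cranial by -2.58 ± 0.21 (adjusted p = 7.59e-05). Bmp6 was higher in Oral (5.95 ± 0.08) than in Cranial by 1.22, in Dorsal by 1.13 and in Ventral by 1.44. Bmp4 was higher in Oral than in Dorsal by 1.28 (adjusted p = 0.0179), and Gdf10 was higher in Cranial than in Dorsal by 2.32 (adjusted p = 0.0452).

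Of 18 other antagonists and modulators, Bmper, a chordin-related BMP binder, was higher in Cranial and in Oral than in Ventral by 1.74 and 1.33. Tmeff2, a membrane protein with follistatin domains, was higher in Oral than in Ventral by 1.81 (adjusted p = 0.0114). Among 14 receptors and co-receptors, the activin type II receptor Acvr2a was higher in Cranial and in Oral than in Dorsal by 1.08 and 0.83. The other activin type II receptor, Acvr2b, was lower there by -0.59 and -0.78. The BMP co-receptor Rgmb was higher in Cranial than in Dorsal by 1.12 and than in Ventral by 1.41.

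Of 9 measured target genes, 5 were higher in Cranial against Dorsal, 4 in Oral against Dorsal, 4 in Oral against Ventral and 5 in Cranial against Ventral, and 0 were lower. Their median differences were 1.23, 0.92, 0.95 and 1.13, where the median of all genes was between -0.06 and -0.02. Id1, a helix-loop-helix inhibitor that BMP Smads induce directly, read 10.41, 10.36 and 10.64 in Cranial and 9.99, 10.24 and 10.17 in Oral. It read 7.10, 6.26 and 9.31 in Dorsal and 8.15, 6.34 and 6.83 in Ventral. Every head array was above every trunk array, and the third Dorsal array was the nearest to the head arrays.

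Id1 was higher in Cranial than in Dorsal by 2.91 ± 0.65, or 7.53-fold (adjusted p = 0.0121 in limma), and than in Ventral by 3.36 ± 0.65, or 10.3-fold (adjusted p = 0.00591). In Oral it was higher than in Dorsal by 2.58 (adjusted p = 0.0207) and than in Ventral by 3.03 (adjusted p = 0.0106). The call against Dorsal in Oral was lost without the second Dorsal array (1.93, adjusted p = 0.0583) or any 1 Oral array (0.0548 to 0.0709), and both calls against Dorsal were lost on the 6 arrays alone (0.0712 for Cranial, 0.0989 for Oral). Msx1, a homeobox target of BMP, was higher in Oral than in Dorsal by 2.02 and than in Ventral by 1.98. Smad7, an inhibitory Smad induced by the pathway, was higher in the head group in all 4 comparisons, by 1.07 to 1.25. Id3 was not called in any comparison.

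**Figure D4:**
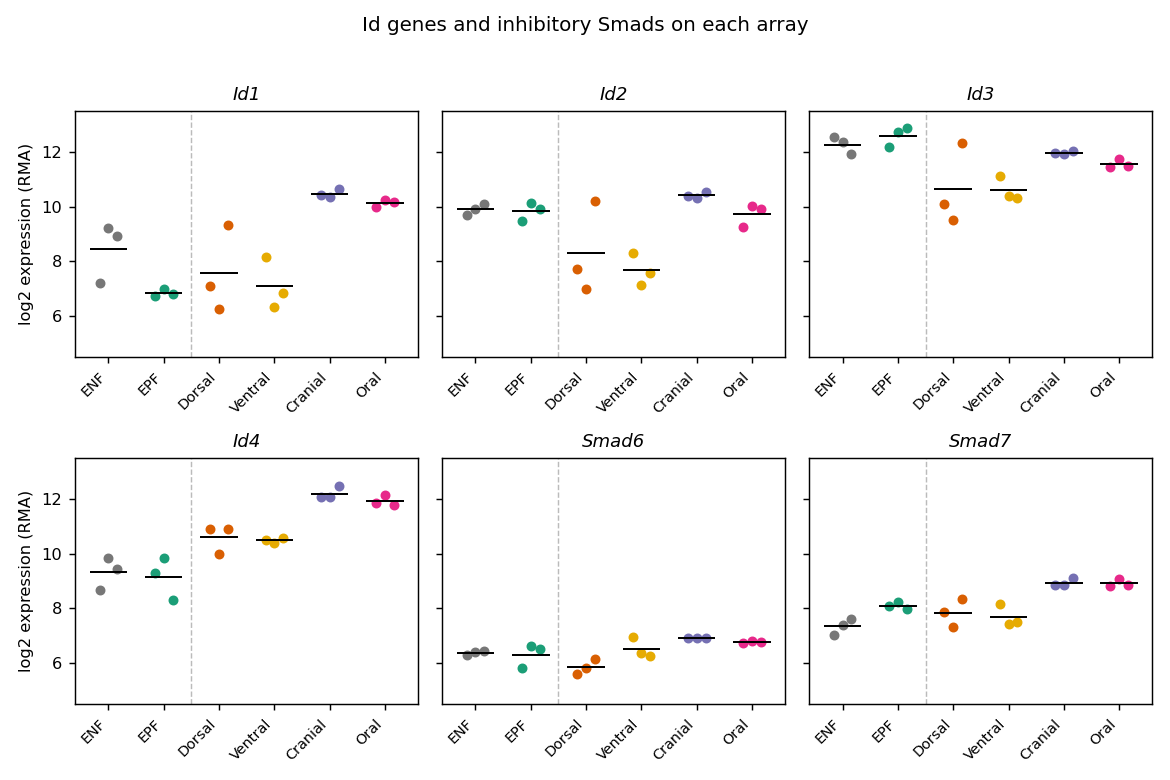
Log2 expression (vertical axis, RMA values) of 4 Id genes and 2 inhibitory Smads on each array, 1 point per array and 3 arrays per group, with a bar at the group mean; the dashed line separates the back-skin pair from the sites. All 6 head arrays lie above all 6 trunk arrays for Id1, from 9.99 to 10.64 against 6.26 to 9.31, while for Id3 the third Dorsal array, at 12.33, is above them all.

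In EPF against Dorsal 22 of the 62 pathway genes were higher and 1 lower, against 10.9% and 5.94% of all genes. Gdf10 was higher in EPF (11.59 ± 0.53) than in Dorsal (5.72 ± 1.36) by 5.87 ± 0.66 (adjusted p = 0.00224 in limma), Bmp5 by 5.25 and Tmeff2 by 5.20. Sostdc1, a BMP and Wnt antagonist, was higher by 3.99 ± 0.78, and Tmeff1 was lower by -2.22 ± 0.51.

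Over the 12 site arrays Fst and Inhba moved together (Pearson's r = 0.839), as did Grem1 and Inhba (0.804) and Grem1 and Inhbb (0.775), while Inhba and Inhbb shared less (0.519). The arrays fall into 4 groups. How far these values reflect differences between groups or single arrays was not tested. Among 1904 other genes that span at least 2 log2 units there, Pparg (r = 0.965) and Zeb2 (0.958) were the most like Grem1. Pde4b (0.969) and Runx1 (0.967) were the most like Fst, Tnk2 (0.968) and Atp8b4 (0.946) the most like Inhba, and Syt13 (0.977) and Lpl (0.970) the most like Inhbb. Lpl averaged 13.80 in Dorsal, 13.19 in Ventral, 12.88 in Cranial and 10.77 in Oral.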

How the data were processed

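Per the series design text, RMA and quantile normalization were run in R by the authors, and the deposited values are log2 expression in 1 column per array. Their software versions are not stated. The table holds 45101 probe sets, 64 of them controls. Of the rest, 34945 carry 1 gene symbol, 932 several and 9160 none. The brightest single-symbol probe set stood for each of 18193 genes, and 34741 of the single-symbol probe sets matched GRCm38.p6 by Entrez ID. The members and lists were chosen with earlier results of these data known.

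Differences were tested with limma 3.58.1 (lmFit, eBayes) in R 4.3.3. EPF and ENF were fitted on 6 arrays, the 4 sites together on 12, and EPF and Dorsal on 6. P-values were adjusted by Benjamini-Hochberg over all genes and called at 0.05. No dim genes were removed. The fits were tested on simulated data. Pathway genes named beside the 9 members come from the up to 2 called with the largest differences per comparison, role list and direction. Not all of these are named. Left out are genes higher in a head group and also Cer1, Inhbc and Neo1, lower in one, and Acvr2b in Oral against Ventral. To these come, for members that span 2 log2 units over the sites, the 2 genes most correlated with each. The first 3 markers are named for the fibroblast, endothelial and leukocyte lists. The second probe sets, the target genes in the plot, the marker sums, Kdr and Lum are described beside them. Id3 and Lum were chosen after their values were seen. Marker sums add linear values and are given as log2. Alternatives were 1 fit of all arrays, only the arrays compared, a replicate block, array weights, an intensity trend, repeated quantile normalization, dim genes left out, the mean over probe sets and each array left out in turn. Tables were made in Python 3.11.15 (pandas 2.3.3, numpy 2.4.6) and plots with matplotlib 3.10.9.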

Additional observations from a re-analysis of the deposited data

How the results depend on the processing

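Of 32 member differences with an unadjusted p under 0.05, 459 values under alternatives were computed. In 378 the call was kept on its side of the threshold, in 50 it was lost, in 31 it was gained and in 0 the direction turned. A second probe set alone was not among these alternatives, and some signs differed there, as for Fst in Cranial against Dorsal (-1.40 and 0.27). Differences with larger p were not followed, and some changed sign, as Inhba in Ventral against Dorsal in 4 of 15 alternatives. Where no cause is given, the cause was not tested.

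With 1 fit of all 18 arrays, the genes called went from 56 to 460 in EPF against ENF and from 3055 to 5678 in EPF against Dorsal. In Cranial against Dorsal the members called went from 0 to 2 of 9, and the genes called from 3393 to 2860 of 18193. With only the 6 arrays compared, the genes called went from 207 to 1795 in Oral against Cranial, from 5 to 0 in Ventral against Dorsal (limma, 533 at an unadjusted p under 0.05) and from 3393 to 1242 in Cranial against Dorsal. They went from 3065 to 1065 in Oral against Dorsal, from 2665 to 4925 in Oral against Ventral and from 3251 to 6684 in Cranial against Ventral. The members called there were 3 in Oral against Cranial, 2 in Oral against Dorsal and 4 in Cranial against Ventral.

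With array weights the genes called were 1926 in Oral against Cranial, 952 in Ventral against Dorsal, 10113 in Cranial against Dorsal, 8963 in Oral against Dorsal, 7724 in Oral against Ventral, 8854 in Cranial against Ventral and 6657 in EPF against Dorsal. The members called were 3, 1 and 4 in the first 3 of these, 4 in Cranial against Ventral and 8 in EPF against Dorsal. An intensity trend with robust eBayes called 88 genes in EPF against ENF. In Cranial against Dorsal 1 of 7 members was called with dim genes left out, beside 2918 of 12181 genes. After quantile normalization again 3 of 9 were called there, beside 3792 of 18193 genes. The mean over probe sets called 1 of 9 there, beside 2976 genes, and 1 in EPF against ENF, beside 40 genes.

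Whether same-numbered arrays share mice or a batch is not stated in the labels. With 3 arrays a group, the correlations below cannot settle it. The correlations of deviations between same-numbered arrays ranged from -0.38 to 0.30, and no comparison had all 3 above 0.1. With the replicate block the genes called were 21 in EPF against ENF, 2 in Ventral against Dorsal and 2931 in Cranial against Dorsal. The members called were 0 in EPF against ENF and 2 of 9 in Cranial against Dorsal. Under the block Chrdl2 (adjusted p = 0.0509) and Inhba (0.0853) in EPF against ENF and Inhbb in EPF against Dorsal (0.0843) lost their calls.

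Without the 2 arrays low in Xist, 4 genes and 0 members were called in EPF against ENF (limma). Leaving out Dorsal 1 and Ventral 1 together, chosen after seeing the data, called 177 genes in Ventral against Dorsal, 6909 in Cranial against Dorsal, 6361 in Oral against Dorsal, 5028 in Oral against Ventral and 5611 in Cranial against Ventral, with 3 members in Cranial against Dorsal.

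Leaving out 1 array at a time, the genes called ranged from 4 to 130 in EPF against ENF, 111 to 129 in Oral against Cranial, 3 to 161 in Ventral against Dorsal, 1645 to 6148 in Cranial against Dorsal, 1770 to 5623 in Oral against Dorsal, 1420 to 2270 in Oral against Ventral, 1641 to 2350 in Cranial against Ventral and 1474 to 4061 in EPF against Dorsal. The members called ranged from 0 to 2, 1 to 1, 0 to 0, 0 to 2, 3 to 4, 3 to 5, 0 to 2 and 3 to 6 in the same order. The number of arrays, 3 a group, limits the precision, and Nog, Chrdl2 outside ENF, Chrdl1 at the sites and Inhbb in Oral lie so near the array median, or below it, that differences from them describe array signal and not RNA ratios.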
